A study of Caenorhabditis elegans with 2 samples.

Results

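The 10 genes described here are members of the cadherin superfamily of *C. elegans*: *hmr-1*, *cdh-4*, *cdh-3*, *cdh-1*, *fmi-1*, *casy-1*, *cdh-5*, *cdh-7*, *cdh-8* and *cdh-10*. They were chosen by name from the 19973 protein-coding genes annotated on the nuclear chromosomes. The rule itself uses no measured value, but it was set with earlier results of these data known. For each gene, every ChIP-seq peak overlapping the gene itself or 5000 bp of upstream DNA was collected, and this stretch is called the window of the gene. The ChIP-seq experiment measured the binding of EGL-43, a zinc finger transcription factor homologous to mammalian EVI1, in the larval stage L3. The sample titles name GFP-tagged EGL-43 in wild-type. The larvae carried *gfp* in the endogenous *egl-43* gene, an allele that the paper lists as zh136[*egl-43::gfp*]. They were grown for 27 h at 25°C and fixed with formaldehyde and EGS, and their chromatin was precipitated with the anti-GFP antibody ab290. There were 2 replicates from independently grown populations and 1 condition. No control library was used here, and whole larvae were taken, so the cells in which a site was bound are unknown. According to the paper, EGL-43::GFP at this stage was found mostly in cells of the somatic gonad and in some head and tail neurons.

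Cadherins are transmembrane proteins with repeated extracellular domains that bind calcium, and many of them hold neighbouring cells together by binding to each other across the gap between the cells. Classical cadherins are linked to the actin cytoskeleton through catenins, while the large cadherins of the Fat, Dachsous and Flamingo types are known for roles in cell polarity, axon outgrowth and the shaping of tissues. In the worm, *cdh-3* is expressed in the anchor cell, the gonadal cell that breaches the basement membranes towards the vulva, and upstream DNA of *cdh-3* is used to drive reporters in this cell.

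The replicate 1 list held 8394 peaks and the replicate 2 list 10925 peaks. The strength of a peak is given as its fold enrichment, the ratio of reads at the summit (the highest point of the peak) to the background that the peak caller estimated. Fold enrichment lay between 1.73 and 19.8 in replicate 1 (median 3.66) and between 1.67 and 19.04 in replicate 2 (median 3.71). Peaks with at least 1 bp in common were joined to a region, and the 7259 regions with a peak of each replicate are called shared. The position of a shared region is given as the midpoint between the summits of the replicates, and this midpoint is meant where a single summit of such a region is named. Ranks of shared regions come from whichever replicate gave the lower fold enrichment, so that rank 1 is the strongest, and the median of this lower value was 3.69. Over all shared regions, the median log2 ratio of replicate 2 to replicate 1 was 0.13 (SD 0.31), and 95% of them lay between -0.49 and 0.75. The lists give no numbers of reads, so depth is unknown and this spread between the replicates is the only error that can be set beside a fold enrichment.

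The sequence under the summits is shown for the strongest shared region of *casy-1*, *fmi-1*, *cdh-1* and *cdh-4*, for the weaker of the shared regions of *cdh-1* and the promoter region of *fmi-1*, which hold a word described below, and for the peak near *cdh-3*. Each run is 101 bases of WBcel235 centred between the summits of both replicates (for *cdh-3*, on the summit of replicate 2), read 5′ to 3′ on the strand of the gene. Capitals mark GATA on either strand, which reads TATC when it lies on the opposite strand, and the 8-base word AGACGCAG.
*casy-1*, intron 8, II:5948889-5948989, minus strand: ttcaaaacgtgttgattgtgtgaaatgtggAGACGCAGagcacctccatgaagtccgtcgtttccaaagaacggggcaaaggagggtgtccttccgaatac
*fmi-1*, intron 4, V:13021832-13021932, plus strand: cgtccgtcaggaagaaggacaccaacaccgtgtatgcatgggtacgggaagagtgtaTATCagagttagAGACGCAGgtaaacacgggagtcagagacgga
*fmi-1*, at the gene start, V:13018887-13018987, plus strand: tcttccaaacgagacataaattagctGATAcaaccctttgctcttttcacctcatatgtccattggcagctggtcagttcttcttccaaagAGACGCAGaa
*cdh-1*, intron 8, stronger, III:2922472-2922572, plus strand: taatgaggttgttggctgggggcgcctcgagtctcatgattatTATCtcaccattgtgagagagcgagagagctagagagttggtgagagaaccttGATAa
*cdh-1*, intron 8, weaker, III:2921086-2921186, plus strand: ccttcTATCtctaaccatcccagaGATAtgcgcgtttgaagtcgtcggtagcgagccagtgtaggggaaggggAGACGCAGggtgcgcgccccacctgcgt
*cdh-4*, upstream, III:4515240-4515340, plus strand: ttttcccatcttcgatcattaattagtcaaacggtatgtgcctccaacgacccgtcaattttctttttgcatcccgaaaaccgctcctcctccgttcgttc
*cdh-3*, upstream, replicate 2 only, III:7757378-7757478, minus strand: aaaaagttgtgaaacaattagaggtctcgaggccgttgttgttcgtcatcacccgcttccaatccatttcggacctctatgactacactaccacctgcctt
Since 2 of these windows are shown because they hold AGACGCAG, its share among them is fixed by the choice. The word stands within the windows at *casy-1*, at both regions of *fmi-1* and at the weaker region of *cdh-1*. It is in neither strand of the windows of *cdh-4*, *cdh-3* and the stronger region of *cdh-1*.

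EGL-43 peaks were spread unevenly over the family. Of the 10 genes, 5 had at least 1 shared region (*hmr-1*, *casy-1*, *cdh-4*, *fmi-1* and *cdh-1*), *cdh-3* had a peak in replicate 2 only, and *cdh-5*, *cdh-7*, *cdh-8* and *cdh-10* had no peak in either list. The share of members with a shared region was 50% (exact 95% interval 18.7% to 81.3%), and over all protein-coding genes it was 34.4%. The windows of the members were long, with a median of 20.5 kb against 7.03 kb over all protein-coding genes, and long windows meet more peaks. Among the 1632 protein-coding genes with a window in the length range of the members (12.7 to 63.9 kb), 58.7% had a shared region. Their median window was 16.1 kb, so they were not matched to the members within this range. The members therefore stood above the share of all genes and below that of genes in this length range, and their interval covers both. In replicate 1, 33 peaks fell at 5 members. A peak of that list was at 36.6% of all protein-coding genes and at 1017 of the 1632 in the length range of the members. In replicate 2, 51 peaks fell at 6 members. A peak of that list was at 43% of all protein-coding genes and at 1136 of the same 1632. In both lists, the share of the members was thus below that of genes in this length range. No peak of either list was at 4 of the 10 members, at 10995 of all 19973 protein-coding genes and at 456 of the 1632.

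**Figure D1:**
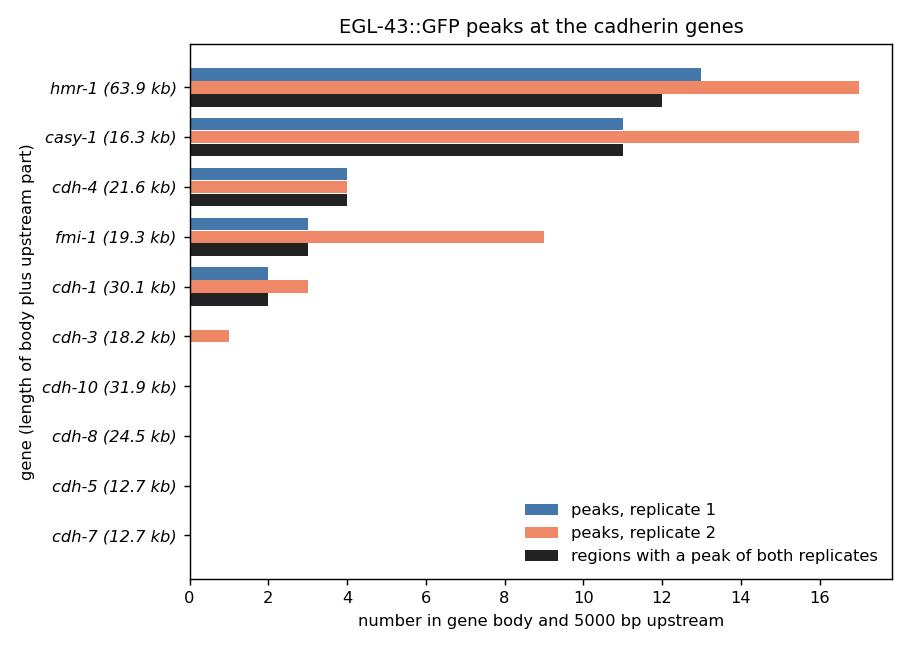
Number of peaks in replicate 1 (blue) and replicate 2 (orange), and of regions with a peak of both (black), in the body plus 5000 bp upstream of each of the 10 cadherin genes, whose window length stands beside the name. *hmr-1* with 12 and *casy-1* with 11 shared regions stand far above the others, *cdh-3* has a single peak in replicate 2, and 4 genes have none.

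Together the windows of the members held 32 shared regions over 251.2 kb, which is 0.127 per kb, and shared regions covered 6.09% of their bases. Over all protein-coding windows the density was 0.0720 per kb with 2.99% of bases covered, and over the windows of the same length range it was 0.0874 per kb with 4.11% covered. Most of the regions lay at a pair of genes, *hmr-1* and *casy-1*, which held 23 of the 32. Without them, a split made after the values were seen, the remaining 8 genes held 9 shared regions at 0.0526 per kb, with 1.94% of bases covered.

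**Figure D2:**
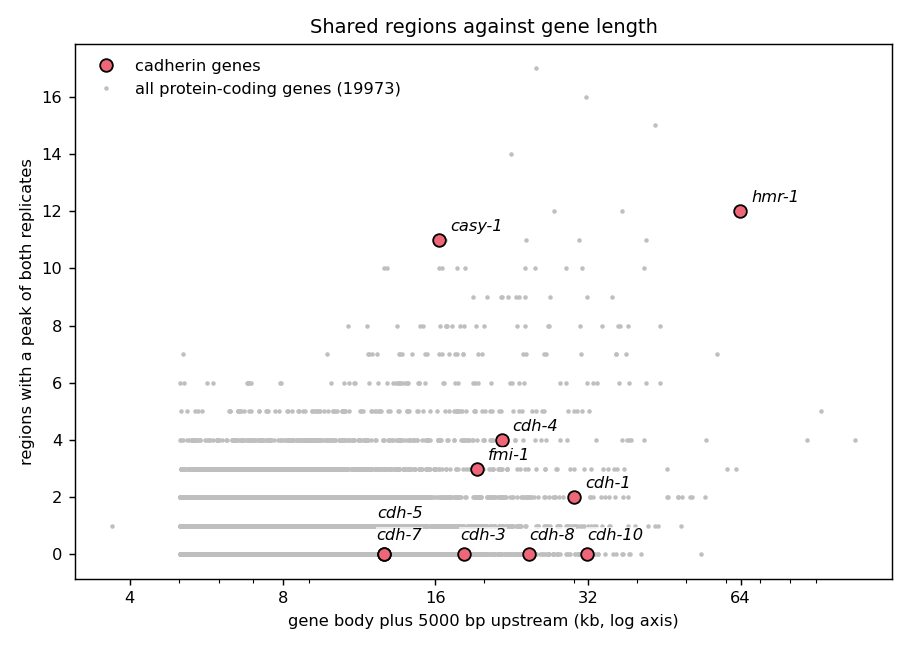
Regions with a peak of both replicates in a gene's body plus 5000 bp upstream (vertical axis) against the length of that stretch in kb (horizontal log axis), for the 10 cadherin genes (red) and all 19973 protein-coding genes (grey). *casy-1* lies at the upper edge of genes of its length, *hmr-1* is among the longest genes, and 5 cadherin genes lie on the zero line.

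*hmr-1* encodes the classical cadherin of the worm, the homolog of E-cadherin at epithelial junctions, and its longest transcript encodes a neuronal form with a larger extracellular part. The gene lies on the minus strand of chromosome I (11075755-11134667) and is the longest member, with 58913 bp. Its annotated coding transcripts begin at 4 positions, of which W02B9.1b starts at the gene start and W02B9.1a, the start of the shorter epithelial form, lies 40141 bp further in. The window held 13 peaks in replicate 1 and 17 in replicate 2, which made 12 shared regions, 1 region of replicate 1 only and 5 of replicate 2 only. Of all 19973 protein-coding genes, 7 (*hmr-1* included) had 12 or more shared regions.

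The strongest region of the family lay in *hmr-1*. At I:11095560-11096237, in intron 21, it had 14.6-fold enrichment in replicate 1 and 15.2-fold in replicate 2, with summits 6 bp apart. This is rank 19 of the 7259 shared regions (the strongest 0.262%) and the only region of a member in the top 10%, whose lower limit was 7.27. For scale, the strongest region at *egl-43* itself had 17.7 in replicate 1 and 16.46 in replicate 2 (rank 7). The summit at *hmr-1* lay 1282 bp upstream of the start of W02B9.1a.

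Intron 21 of the long form is 18310 bp long, contains the start of W02B9.1a near its 3′ end, and held 6 of the 12 shared regions. The second strongest of them, at I:11098367-11098789, had 7.93 in replicate 1 and 7.0 in replicate 2 (rank 811). The remaining 4 were weaker, and the weakest, at I:11103118-11103372, had 2.87 in replicate 1 and 2.28 in replicate 2 (rank 7147). All 6 lay between 1282 and 8723 bp upstream of the start of W02B9.1a, in the part of the intron nearest to that start.

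Intron 22 held 2 shared regions and intron 25 held 2 more. The stronger of those in intron 25, at I:11084566-11084989, had 5.05 in replicate 1 and 5.82 in replicate 2 and lay 745 bp upstream of the start of the short transcript W02B9.1e. Its neighbour at I:11085844-11086128 had 5.23 in replicate 1 and 3.63 in replicate 2, a log2 ratio of -0.53, outside the range that held 95% of all shared regions. In intron 22, the region at I:11090861-11092276 was 1416 bp long, the longest at a member, and its summits were 1012 bp apart, so the replicates had their highest points at different places within it. It had 4.36 in replicate 1 and 3.29 in replicate 2.

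Upstream of the start of the long form, *hmr-1* had 2 shared regions. The one at I:11137442-11137721, 2933 bp upstream, had 6.17 in replicate 1 and 5.49 in replicate 2 (rank 1558). The one 1724 bp upstream had 2.61 in replicate 1 and 4.56 in replicate 2, a log2 ratio of 0.80, again outside the 95% range. From the outermost shared region of intron 21 to the one 1724 bp upstream of the gene, a stretch of 32869 bp that holds the 21 exons before this intron, no shared region was found. In that stretch, 4 peaks of replicate 2 alone had fold enrichments between 2.70 and 3.80. The shared regions of *hmr-1* were evenly divided between the replicates, with 6 of 12 higher in replicate 2 and a median log2 ratio of -0.05.

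**Figure D3:**
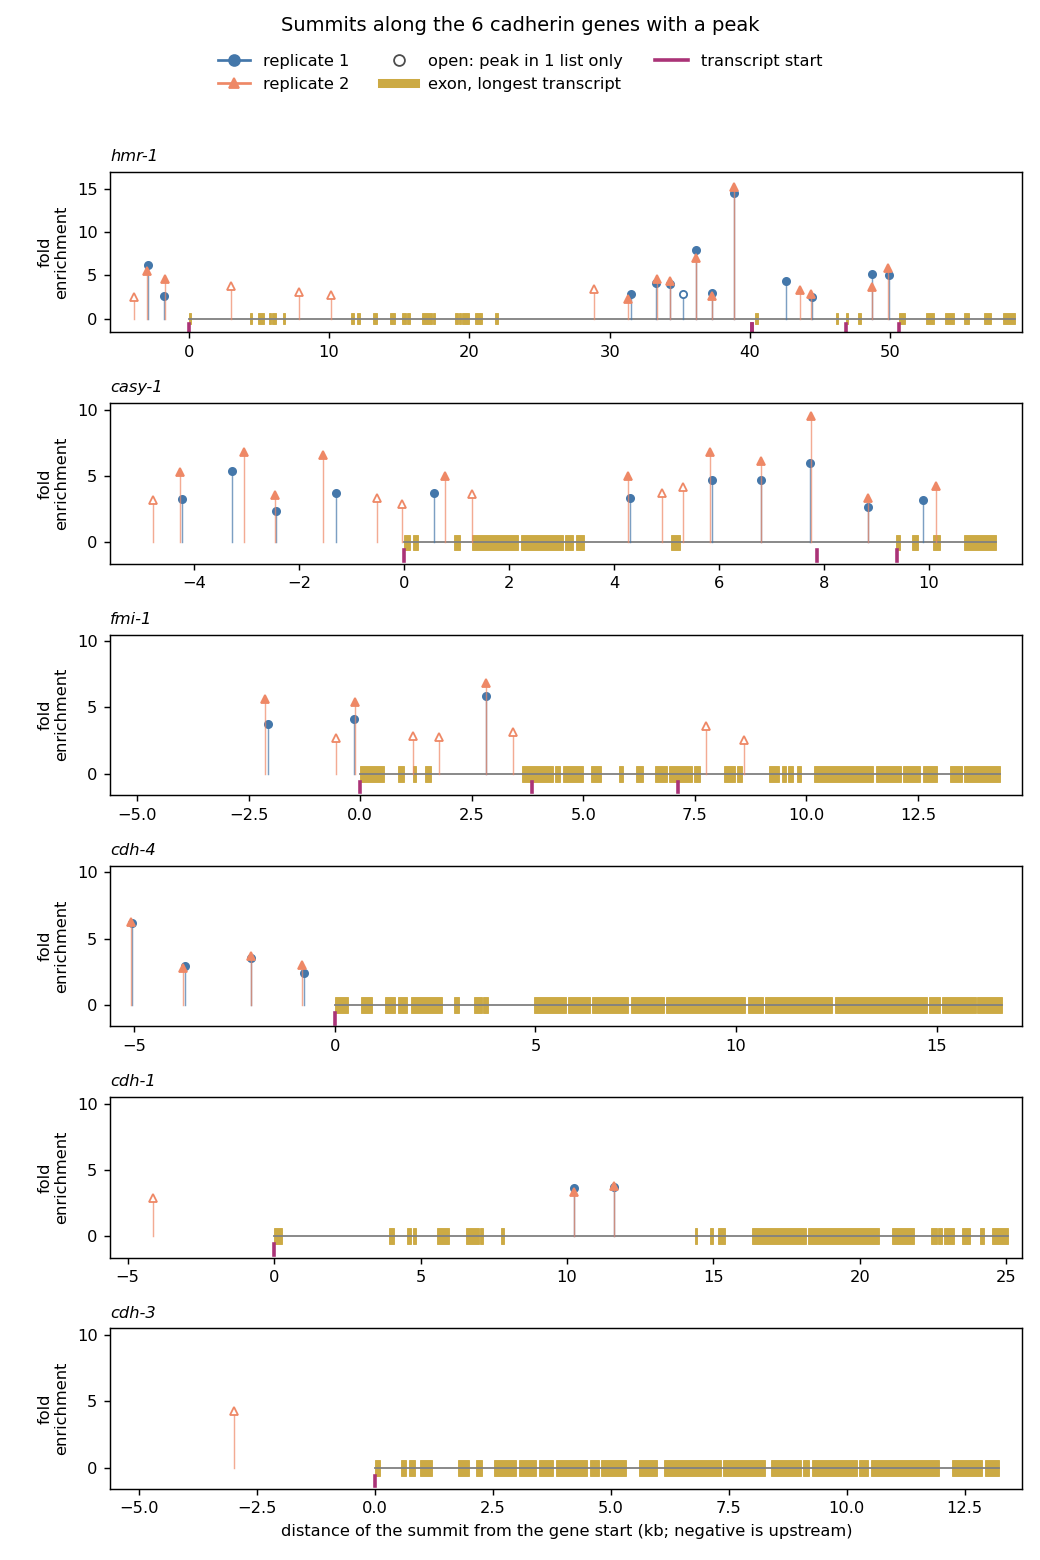
Fold enrichment of each peak (vertical axis) against the distance of its summit from the gene start in kb along the direction of the gene (horizontal axis, negative is upstream), in replicate 1 (blue circles) and replicate 2 (orange triangles) for the 6 cadherin genes with a peak. Open symbols are peaks found in 1 list only, gold boxes are exons of the longest transcript and purple ticks are transcript starts. At *hmr-1* the highest stems (14.6 and 15.2) stand just before the inner start at 40141 bp, at *cdh-4* all stems are upstream of the gene, and at *cdh-3* the only stem is an open triangle at 4.30.

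Of the Fat-like cadherins, *cdh-4*, which acts in the development of the nervous system, had 4 shared regions and *cdh-3* had none. *cdh-4* lies on the plus strand of chromosome III (4520357-4536994), and none of its regions was in the gene body. Their summits were 5067, 3761, 2091 and 792 bp upstream of the gene start. The farthest, at III:4515075-4515484, was the strongest, with 6.18 in replicate 1 and 6.24 in replicate 2 (rank 1156). It touches the end of the window while its summit lies just outside. The next had 2.96 in replicate 1 and 2.77 in replicate 2. The region 2091 bp upstream had 3.57 and 3.71, and the one nearest to the gene had 2.44 and 3.04, in replicates 1 and 2. These 3 were of rank 3880 or weaker. The replicates differed little at *cdh-4*, with log2 ratios between -0.09 and 0.32.

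*cdh-3* lies on the minus strand of chromosome III (7741229-7754448), and its window of 18.2 kb held no peak of replicate 1 and 1 peak of replicate 2. That peak, at III:7757331-7757540, had a 4.30-fold enrichment (−log10 q-value 15.95), and its summit was 2980 bp upstream of *cdh-3*. Replicate 1 has no value there, since its list gives only called peaks. Among the 3514 regions of replicate 2 alone, whose median was 2.95, 171 (4.87%) had a fold enrichment at least as high. Among shared regions, 47.2% had a lower value in replicate 2, so the peak near *cdh-3* was of middling strength on that scale. It was also the highest of the 19 regions of replicate 2 alone at the members, which lay between 2.45 and 4.30.

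The peak stands between *cdh-3* and *pcp-1*, a gene on the opposite strand whose start is 1475 bp from the summit, and the genes are 4454 bp apart. The peak is thus upstream of both genes, and the peak lists cannot tell which of them it belongs to. The *cdh-3* promoter fragment of the study's reporters was sought through its primers. The 21 bases at the 3′ end of the outer primer, ctagagcatgatgtccttacc, occur once in the genome, on the minus strand at III:7758990-7759010, between 4542 and 4562 bp upstream of *cdh-3*. This primer site lies beyond the peak, inside *pcp-1*. The primers for the other end had no match by which to place it. The study amplified the fragment from a plasmid, so whether it holds the DNA under the peak is unknown.

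Shared regions were distant from *cdh-3*. The nearest upstream was 15730 bp from the gene start, in *snu-23*, with 3.30 in replicate 1 and 2.78 in replicate 2. The nearest downstream was 10347 bp from the gene end, in *ncl-1*, with 3.14 in replicate 1 and 2.53 in replicate 2. Closer on that side, 2305 bp from the gene end and outside the window, was a peak of replicate 1 only, with 2.61. The genes taken for scale had shared regions in a window of this kind, and *egl-43* itself had 10. From these same data, the paper had already reported binding at *egl-43*, *fos-1* and *zmp-1* and no specific binding at *cdh-3*. This contrast was therefore known when the genes were picked and adds no separate support. *fos-1*, a transcription factor of the AP-1 family, had 7 with 11.1 in replicate 1 and 10.05 in replicate 2 at the strongest. The matrix metalloprotease gene *zmp-1* had 6 with 5.66 and 4.89, and *him-4*, which encodes the extracellular matrix protein hemicentin, had 4 with 6.36 and 7.51, in replicates 1 and 2. These windows differ in length, with 17.5 kb at *fos-1*, 11.1 kb at *zmp-1* and 41.2 kb at *him-4*, and 34.4% of all protein-coding genes had a shared region. Within the family, the 0 shared regions of *cdh-3* stand beside 0 at 4 genes and 2 to 12 at the other 5.

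*cdh-1*, the Dachsous-like cadherin, lies on the plus strand of chromosome III (2910906-2935961) and had 2 shared regions, both in intron 8, which is 6513 bp long. The stronger, at III:2922402-2922618, had 3.73 in replicate 1 and 3.80 in replicate 2 (rank 3559). The weaker, at III:2921035-2921229, had 3.66 in replicate 1 and 3.38 in replicate 2 (rank 4401). Both were near the median of all shared regions and among the shortest at the members, with 217 and 195 bp. Both also lie within R10F2.4 (III:2919503-2923112), a coding gene on the opposite strand inside this intron, so they cannot be given to *cdh-1* alone. Upstream of *cdh-1* there was 1 peak of replicate 2 only, 4151 bp from the gene start, with 2.87.

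*fmi-1*, the Flamingo homolog, is known for roles in the guidance of axons. It is a plus-strand gene of chromosome V (13019061-13033401), and its annotated transcripts have 3 different starts. It had 3 peaks in replicate 1 and 9 in replicate 2, which made 3 shared regions. The strongest, at V:13021439-13022053 in intron 4, had 5.84 in replicate 1 and 6.84 in replicate 2 (rank 1340) and lay 1031 bp upstream of the start of F15B9.7b. The region at V:13018723-13019149 reached over the gene start, with a summit 124 bp upstream, and had 4.09 in replicate 1 and 5.40 in replicate 2 (rank 2945). It was the only shared region of the family with a summit within 500 bp upstream of a gene start. The third, 2105 bp upstream, had 3.75 in replicate 1 and 5.65 in replicate 2 and touches the neighbouring gene F15B9.6. All 3 were higher in replicate 2, by log2 ratios of 0.23 to 0.59, and the 6 regions of replicate 2 alone had fold enrichments between 2.53 and 3.63.

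*casy-1* encodes the calsyntenin of the worm, a neuronal membrane protein with cadherin domains that is required for learning. The gene, on the minus strand of chromosome II (5945405-5956683), is only 11279 bp long, and its window held 11 peaks in replicate 1 and 17 in replicate 2. These made 11 shared regions, and 12 of all protein-coding genes had as many or more. Density was 0.676 shared regions per kb, against 0.188 per kb in *hmr-1* and 0.127 per kb over the family, and shared regions covered 39.7% of the window. The regions formed a row over 14783 bp, with a median gap of 545 bp between neighbours. Of the 11, 4 were in intron 8, 3 in other introns and 4 upstream of the gene.

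The strongest region at *casy-1*, II:5948658-5949247 in intron 8, had 6.01 in replicate 1 and 9.54 in replicate 2 (rank 1241). Its summit was 128 bp upstream of the start of B0034.3b, a short transcript that begins 7872 bp inside the gene. A second region of this intron had a summit 538 bp upstream of the start of B0034.3c, with 2.70 in replicate 1 and 3.38 in replicate 2. The remaining regions of intron 8 had 4.70 and 6.16 at II:5949583-5950305, and 4.70 and 6.84 at II:5950373-5951069, in replicates 1 and 2. Upstream of the gene, the strongest region was II:5959496-5960244, 3164 bp from the start, with 5.40 in replicate 1 and 6.84 in replicate 2 (rank 1616). At the start of the full-length transcript there was only a peak of replicate 2, which was enriched 2.87-fold and had its summit 35 bp upstream.

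The replicates differed at *casy-1* in 1 direction. All 11 regions were higher in replicate 2, by log2 ratios of 0.32 to 0.81 with a median of 0.54, against a median of 0.13 over all shared regions. Only 1 of these ratios, that of 0.81 at II:5957641-5958382, lay outside the range that held 95% of all shared regions. Summits were over 100 bp apart in 4 of the 11 regions. Neighbouring regions of 1 gene are not independent of each other, and with 1 value per replicate the difference was not tested.

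**Figure D4:**
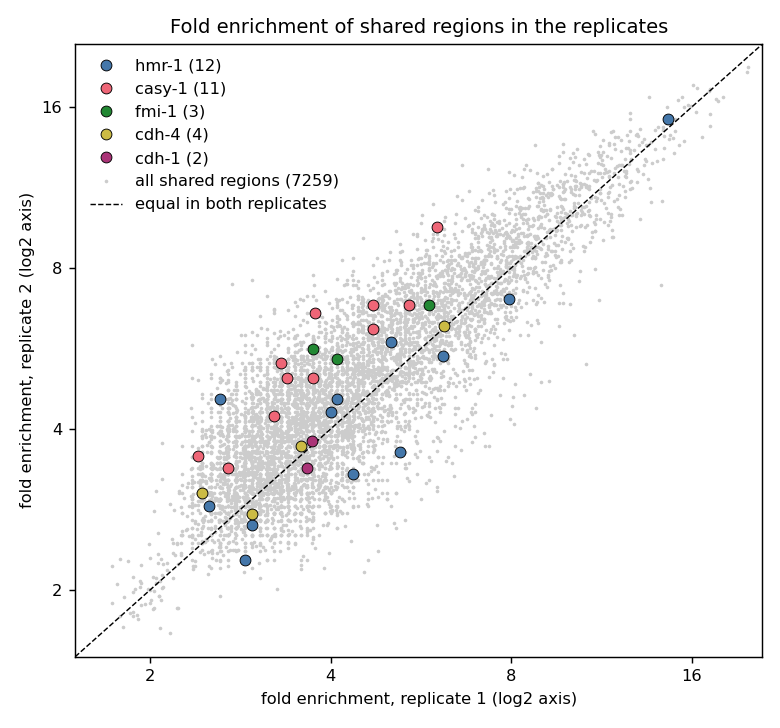
Fold enrichment in replicate 2 (vertical log2 axis) against replicate 1 (horizontal log2 axis) for the 32 shared regions at the cadherin genes (coloured by gene) and for all 7259 shared regions (grey), with the line of equal values dashed. All *casy-1* and *fmi-1* points lie above the line, the *hmr-1* points lie on both sides, and the strongest *hmr-1* region (14.6 and 15.2) stands at the upper end of the grey cloud.

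The 4 members without a peak included long and short genes. Of the 1632 protein-coding genes in the length range of the members, 456 also had no peak in either list. *cdh-10* (IV:2436498-2463369) has a window of 31.9 kb, the second longest of the family, and an intron of 13116 bp. *cdh-8* (IV:339808-359293) has a window of 24.5 kb, and *cdh-5* (IV:8668935-8676619) and *cdh-7* (II:14843229-14850905) have windows of 12.7 kb each. The nearest shared region downstream of *cdh-8* was 7271 bp from the gene end, in *fln-1*, with 5.31 in replicate 1 and 6.35 in replicate 2. The nearest one on either side was 13621 bp away for *cdh-7*, 17926 bp for *cdh-10* and 22171 bp for *cdh-5*. Upstream of *cdh-10*, no peak of either list was found within 136441 bp of the gene start.

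As a family, the 32 regions were close in strength to shared regions in general. Their lower fold enrichment had a median of 3.74 and a range of 2.28 to 14.6, against a median of 3.69 over all shared regions, and 17 of the 32 had a better rank than the middle one. One region was in the top 10% and 7 were in the top 25%. In 24 of the 32, replicate 2 was higher, which includes all 11 of *casy-1*, and without *casy-1* the count was 13 of 21. Over all shared regions, 67.4% were higher in replicate 2. The log2 ratio had an SD of 0.35 over the members and 0.31 over all shared regions, and 3 of the 32 lay outside the 95% range. Summits of the replicates were within 100 bp of each other in 26 of the 32. A further 20 regions at the members were found in 1 list only, 1 in replicate 1 and 19 in replicate 2, and over the whole genome 80.0% of such regions were in replicate 2.

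Summits were placed against the introns and exons of the longest transcript of each gene. By the midpoint of their summits, 20 of the 32 regions (62.5%) were in introns, 12 (37.5%) were upstream and 0 were in exons. Exons make up 29.3% of the bases of these windows. Of the summits of the replicates taken singly, 0 were in an exon in replicate 1 and 1 was in replicate 2, that of the *casy-1* region II:5946433-5946985. As whole stretches, 3 of the 32 regions touched an exon of the longest transcript. They were the *casy-1* region just named, a second region of *casy-1* and the one at the start of *fmi-1*. The strongest region of *casy-1* was not among them, but it reaches over the start of the short transcript B0034.3b at II:5948811. Over all genes with a window of the same length range, 56.1% of midpoints were in introns, 39.6% upstream and 3.33% in exons, with exons making up 19.3% of the bases. Over all protein-coding genes, 18.5% were in introns and 75.5% upstream. The intronic share at the members was thus near that of other long genes. Within 500 bp upstream of any annotated transcript start there were 2 midpoints, those at F15B9.7a of *fmi-1* and at B0034.3b of *casy-1*.

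Short words were searched on both strands in the 101 bases around the midpoint of the summits. In 6 of the 32 regions the summits were 194 to 1012 bp apart, so that these windows hold neither of them. AGATGAG and ACAAGATA, words bound by the C-terminal and the N-terminal zinc fingers of mammalian EVI1, were in 0 of the 32 windows at the members, against 4.02% and 0.248% of all shared regions. TGACTCA, the AP-1 site, was in 2 windows, both at *hmr-1*, against 3.39% of all shared regions. GATA was in 13 windows (40.6%), against 37.5% of all shared regions. A count of 0 in 32 windows allows a share of up to 9.38% by counting alone. This limit is the approximate rule of 3 counts over the number of windows, not an exact interval. No count was tested against its background. Among the 26 windows that hold both summits, TGACTCA was in 2 and GATA in 12. AGACGCAG, which was noticed in the windows of the strongest regions and chosen after they were seen, was in 5 of the 32 (15.6%), against 10.97% of all shared regions. The 5 are all among the 26 windows with both summits. They are both printed regions of *fmi-1*, 1 region each of *casy-1* and *cdh-1*, and the region 2933 bp upstream of *hmr-1*. The windows of the strongest regions of *hmr-1*, *cdh-4* and *cdh-1* do not hold it. In windows of the same width centred 500 bp to either side, it was in 0 of 64 at the members and in 0.572% over all shared regions. Since the word was picked from summit windows of the members, its share there and its contrast with the flanks were shaped by that choice. Over all shared regions, its share also differed with strength. It was in 21.7% of those in the top 10% and in 6.04% of those ranked below the middle. A match is a string of letters and was not tested as a binding site. The GC content of the windows had a median of 45.0% at the members and 45.5% over all shared regions.

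The other 2 cadherin genes searched had few peaks. *cdh-12* had 1 shared region, with 4.44 in replicate 1 and 4.89 in replicate 2, in intron 8 and 812 bp upstream of an inner transcript start. *cdh-9* had no shared region and 2 peaks of replicate 2 alone, with 3.76 and 4.56.

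The 5 of 10 members with a shared region stand beside 7 of 7 genes of proteins that bind cadherins or share junctions and adhesion sites with them, the partner list having an exact 95% interval of 59.0% to 100%, and 34.4% of all protein-coding genes had such a region. On X, where no member lies, are 2 of the 7 (*ajm-1* and *dlg-1*). The 7 genes held 29 shared regions at 0.213 per kb in windows with a median of 11.3 kb. Over all protein-coding genes the median window was 7.03 kb, and no share was taken over genes with windows like those of the partners. For the catenins, *hmp-1* (alpha-catenin) had 4 regions, the strongest with 10.6 in replicate 1 and 10.4 in replicate 2 (rank 175). *jac-1* (p120-catenin) had 2, the stronger with 8.27 and 10.4, and *hmp-2* (beta-catenin) had 1 with 7.57 and 7.19, in replicates 1 and 2. Among the other junction and adhesion genes, *dlg-1* had 3 with up to 9.63 in replicate 1 and 12.6 in replicate 2 (rank 262), *let-413* had 3, *ajm-1* had 9 and *sax-7* had 7. Only the strongest *hmr-1* region, of all those at the members, was as high as the *hmp-2* region in both replicates. The list of partners is short and was drawn up with earlier results of these data known, so the difference was not tested.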

How the data were processed

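EGL-43::GFP ChIP-seq peak lists of 2 replicates of L3 larvae, 1 condition, were analysed. According to the study's methods, the authors aligned reads to ce11 with BWA 0.7.7, used SAMtools 0.1.19 for conversion, and ran MACS2 on each replicate alone with an FDR limit of 0.05. In the lists, q-values reached 0.00395 in replicate 1 and 0.00688 in replicate 2. The deposited values of a peak are its fold enrichment (a ratio over the estimated background), −log10 p-value and −log10 q-value, and a score made from the q-value, which was not used. The lists precede the later splitting, score limit and blacklist of the study. A peak caller's background without a control library can leave peaks in open or repeated DNA, which was not checked here. No reads or totals are given, so depth is unknown.

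Peaks overlapping by at least 1 bp were merged, and regions with a peak of each replicate were kept as shared. Where a region held several peaks of a replicate, the highest fold enrichment was taken. Genes and exons came from Ensembl release 115 on WBcel235, which has the same chromosome lengths as the lists, and exons were numbered in the longest transcript. Sequence was read from the RefSeq genome of the same build. Merging was tested on simulated peaks. No test between groups was possible. Exact binomial (Clopper-Pearson) intervals cover counting error only.

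The named genes are all 10 members, the remaining cadherin genes *cdh-9* and *cdh-12*, 7 junction partners, and *egl-43*, *fos-1*, *zmp-1* and *him-4* for scale. Neighbouring genes are named for their position after the values were seen. Regions are described in full where they are the strongest of a member or in the top 10%, and others were chosen after their values were seen. Members and lists were chosen with earlier results of these data known. Alternatives were other upstream limits, a stricter q-value, other overlap rules, each list alone, and other windows and summits for the words. Python 3.11.15, numpy 2.4.6, scipy 1.17.1 and matplotlib 3.10.9 were used.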

Additional observations from a re-analysis of the deposited data

How the results depend on the processing

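The number of members with a shared region was 5 in 8 of 11 alternative settings. It was 4 with the gene body only or with 500 bp upstream, where *cdh-4* had none, and 6 without replicate 1, where the peak near *cdh-3* counts. The 32 shared regions became 21 with the gene body only and 21 with 500 bp upstream. With a single list, the count was between 33 and 51 and the density between 0.131 and 0.203 per kb. Peaks of replicate 1 at the members fell to 21 in the gene body only, against 33. For *cdh-3*, shared regions were between 0 and 1 with a single list, and its peak in replicate 2 was lost (0 peaks) with the gene body only, 500 bp or 2000 bp upstream. AGATGAG was in 1 window with 100 bp on either side of the summit, and ACAAGATA in 1 at the summits of replicate 2 alone. By the summits of replicate 2 alone, an alternative added after the data were seen, 1 of the 32 regions had its summit in an exon. At *casy-1*, 7 of the 11 regions had summits within 100 bp of each other. Against autosomal genes only, a background added after the data were seen because no member lies on X, 32.7% of genes and 55.9% of those in the length range had a shared region.

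The lists limit what can be said: without reads or a control library, a peak missing from a list cannot be told from a weak one, no fold enrichment has an error beyond the pair of replicates, and binding in the anchor cell cannot be separated from binding elsewhere in the larva. No paired analysis was possible because there was 1 group.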
